A study of Mus musculus with 8 samples.

Results

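The clustered protocadherins are cell adhesion proteins of the cadherin family that are best known from neurons. Their genes lie in 3 neighbouring clusters, named alpha, beta and gamma, on mouse chromosome 18. Members were chosen by symbol, as every gene whose symbol, found through the RefSeq accession that a probe carries, begins with Pcdha, Pcdhb, Pcdhga, Pcdhgb or Pcdhgc. The reference gene table lists 58 such genes, of which 14 are alpha, 22 beta and 22 gamma. On the array, 35 of the 58 had a probe, among 19897 genes with a symbol and a probe. They were 7 alpha, 22 beta and 6 gamma genes, read by 38 probes.

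RNA was measured on 8 single-colour arrays of motor neuron cultures made from mouse embryonic stem cells of a male line that carries Hb9-GFP, a green fluorescent reporter of motor neurons. The 4 groups, with 2 arrays each, were Litchi knockouts and controls sampled on day 9, and Litchi knockouts and controls sampled on day 7. In all 4 groups, retinoic acid and Sonic hedgehog were given from day 2 to day 5 of differentiation, the embryoid bodies were taken apart on day 5, and the growth factor GDNF was present from then on. The labels give neither how the knockout was made nor the number of clones behind it, and they name no sorting step. The cultures were therefore treated as mixed, and in such bulk RNA fewer cells of a type and less RNA per cell cannot be told apart. The labels do not say that replicates are separate cultures, so the spread behind the p-values may be technical. Litchi was not found under that name in the gene table, so its level was not checked.

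As background, each neuron switches on a small and largely random choice of clustered protocadherin promoters, and the proteins bind like to like across cell contacts, which lets a neuron tell its own branches from those of other cells. Alpha and gamma transcripts join 1 variable first exon, which encodes the whole extracellular part, to constant exons shared by the cluster, whereas each beta gene is a single exon without a shared tail. The last genes of the alpha and gamma clusters, called C-types, are switched on more uniformly than the others. Promoter choice depends on the DNA-binding protein CTCF and on cohesin, which fold the clusters towards distant enhancers, and unused promoters are silenced by DNA methylation and heterochromatin proteins. In the spinal cord, gamma protocadherins are known for keeping interneurons alive.

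Array brightness, as the 75th percentile of the processed signal, was 649 to 1691 units of intensity, with 55.9% to 67.9% of spots well above background. Arrays of 1 group correlated with each other at r between 0.989 and 0.994 across genes, and the 2 arrays of control cells on day 9 lay apart on the first principal component, at 11.1 and 43.8. All 9 motor neuron markers were above background on all 8 arrays. Their summed level was 13.9 and 16.0 in day 9 knockout cells, 30.9 and 23.8 in day 9 controls, 45.4 and 51.8 in day 7 knockout cells, and 58.1 and 61.5 in day 7 controls, in multiples of the array's 75th percentile.

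Every expression value below is the log2 processed signal minus the array's 75th percentile, so 0 stands for a spot at that percentile. Levels of different probes are not compared, since probes differ in how brightly they bind. The array's annotation used here does not give a probe's place in the transcript, so whether an alpha or gamma probe reads its gene's own exon or a shared exon was not tested, and beta genes are close enough in sequence that 1 probe may bind several.

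In all, 33 of the 35 genes were well above background on at least 1 array and 26 on all 8 arrays. A total of 30 genes passed the filter for testing, which asks that some group has both of its arrays well above background. They were 6 of 7 alpha, 21 of 22 beta and 3 of 6 gamma genes, out of 24624 genes tested. Of the beta genes, 18 were above background on all 8 arrays. The 4 tested genes that were dim on some arrays were Pcdhb5, Pcdhb9, Pcdhb19 and Pcdhga5. The 5 genes left out by the filter were Pcdhac1 and Pcdhga10, above background on 0 arrays, Pcdhgc5 on 1, Pcdhb1 on 2 and Pcdhgb1 on 4. Of the 5 C-type genes, Pcdhac2 alone was tested, and Pcdhgc3 and Pcdhgc4 had no matched probe and were not analysed here.

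**Figure D1:**
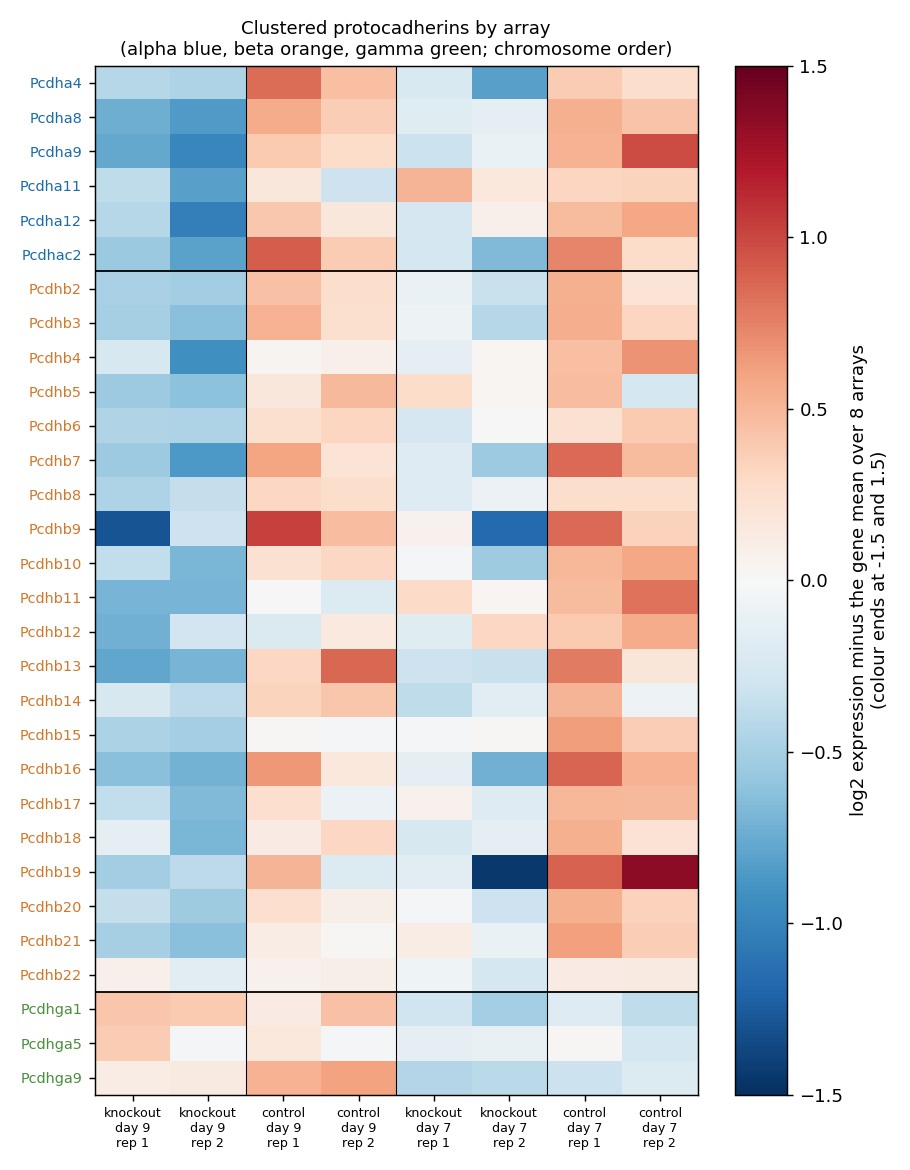
Log2 expression of the 30 tested clustered protocadherins on each of the 8 arrays, as the difference from each gene's own mean over the arrays (colour), with genes down the page in chromosome order. Alpha and beta genes are mostly blue on the 4 knockout arrays and red on the 4 control arrays, whereas the 3 gamma genes are red on all 4 day 9 arrays, or near 0, and mostly blue on the day 7 arrays.

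The first comparison set knockout against control cells on day 9, the later sampling. Of the 30 clustered protocadherins, 10 fell and 0 rose in knockout cells at an adjusted p under 0.05, by limma over all genes tested, where 3.96% of genes fell and 1.51% rose. The 10 were 4 of 6 alpha genes and 6 of 21 beta genes, and 0 of 3 gamma genes were called. The median log2 change was -1.14 over the alpha genes, -0.69 over the beta genes and 0.12 over the gamma genes, beside -0.02 over all genes tested. The gamma median is the value of Pcdhga5, a gene near background. It passed the filter through day 9 knockout cells alone, a route that favours a higher knockout value on day 9. The alpha median corresponds to 45.2% of the control level and the beta median to 62.0%. At an unadjusted p under 0.05, 24 of 30 were lower and 0 higher, where 15.3% of all genes were lower and 10.4% higher. Both knockout arrays were below both control arrays in 27 of 30 genes, against 32.5% of all genes, and above them in 0, against 27.1%. The 27 include Pcdhb5, whose route through day 7 knockout and day 9 control cells favoured that direction. The difference between the clusters was not tested. Scaling the arrays by their median moved the median of all genes on day 9 to 0.19. Relative to all genes, the cluster medians were -1.12 for alpha, -0.67 for beta and 0.14 for gamma, and with a normexp background correction they were -0.74, -0.51 and -0.07.

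The day 9 count moved with each array. With 1 array left out, the lone array of its group being taken to vary like the others, the count was 3 without any single day 7 array (knockout or control, replicate 1 or 2). It was 1 without control replicate 2 of day 9, and 0 without control replicate 1, knockout replicate 1 or knockout replicate 2 of that day. The share of all genes that fell also shrank, to between 0.0244% and 2.47%.

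Of the 4 largest called falls on day 9, 3 were of alpha genes. Pcdhac2, a C-type gene that serotonergic neurons need to space their axons, stood at 1.11 and 0.86 in day 9 knockout cells, 2.57 and 2.05 in day 9 controls, 1.40 and 1.00 in day 7 knockout cells, and 2.39 and 1.95 in day 7 controls. Its knockout arrays were below its control arrays on each day, with no overlap. The change was -1.33 ± 0.26 (adjusted p = 0.0399) on day 9, which is 39.8% of the control level, and -0.97 ± 0.26 (adjusted p = 0.136) on day 7. Another Pcdhac2 probe was above background on 2 of 8 arrays and did not pass the filter.

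Pcdha8, a variable alpha gene, read -0.95 and -1.07 in day 9 knockout cells, 0.34 and 0.14 in day 9 controls, -0.41 and -0.36 in day 7 knockout cells, and 0.31 and 0.20 in day 7 controls. The knockout arrays lay lowest on day 9, and neither day showed overlap between genotypes. The change was -1.25 ± 0.14 (adjusted p = 0.0157) on day 9, or 42.0% of control. A second Pcdha8 probe, also above background on all 8 arrays, read -5.52 and -2.31 in day 9 knockout cells and -3.91 and -4.23 in day 9 controls. Its 2 knockout arrays lay on either side of the control arrays, and its change of 0.16 ± 0.91 had an adjusted p of 0.936, with all kept probes tested, so the Pcdha8 call rests on 1 of its 2 probes.

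The remaining alpha genes are each a variable exon of the same cluster. Pcdha4 stood at -3.12 and -3.15 in day 9 knockout cells, -1.86 and -2.24 in day 9 controls, -2.92 and -3.51 in day 7 knockout cells, and -2.32 and -2.44 in day 7 controls. Pcdha9 stood at -3.90 and -4.11 in day 9 knockout cells, -2.74 and -2.86 in day 9 controls, -3.45 and -3.24 in day 7 knockout cells, and -2.61 and -2.16 in day 7 controls. In both genes all 4 knockout arrays were below all 4 control arrays. On day 9 Pcdha4 changed by -1.09 ± 0.23 (adjusted p = 0.0489) and Pcdha9 by -1.20 ± 0.19 (adjusted p = 0.0284).

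Pcdha12 read -4.30 and -4.89 in day 9 knockout cells, -3.46 and -3.69 in day 9 controls, -4.12 and -3.79 in day 7 knockout cells, and -3.39 and -3.29 in day 7 controls. Its knockout arrays were the lower ones on each day, and its day 9 value of -1.02 ± 0.23 (adjusted p = 0.0572) did not pass. Pcdha11 read -4.85 and -5.27 in day 9 knockout cells, -4.29 and -4.77 in day 9 controls, -3.95 and -4.30 in day 7 knockout cells, and -4.14 and -4.12 in day 7 controls. Here the genotypes overlapped on day 7 and not on day 9, with values of 0.01 ± 0.23 (adjusted p = 0.992) on day 7 and -0.53 ± 0.23 (adjusted p = 0.211) on day 9.

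**Figure D2:**
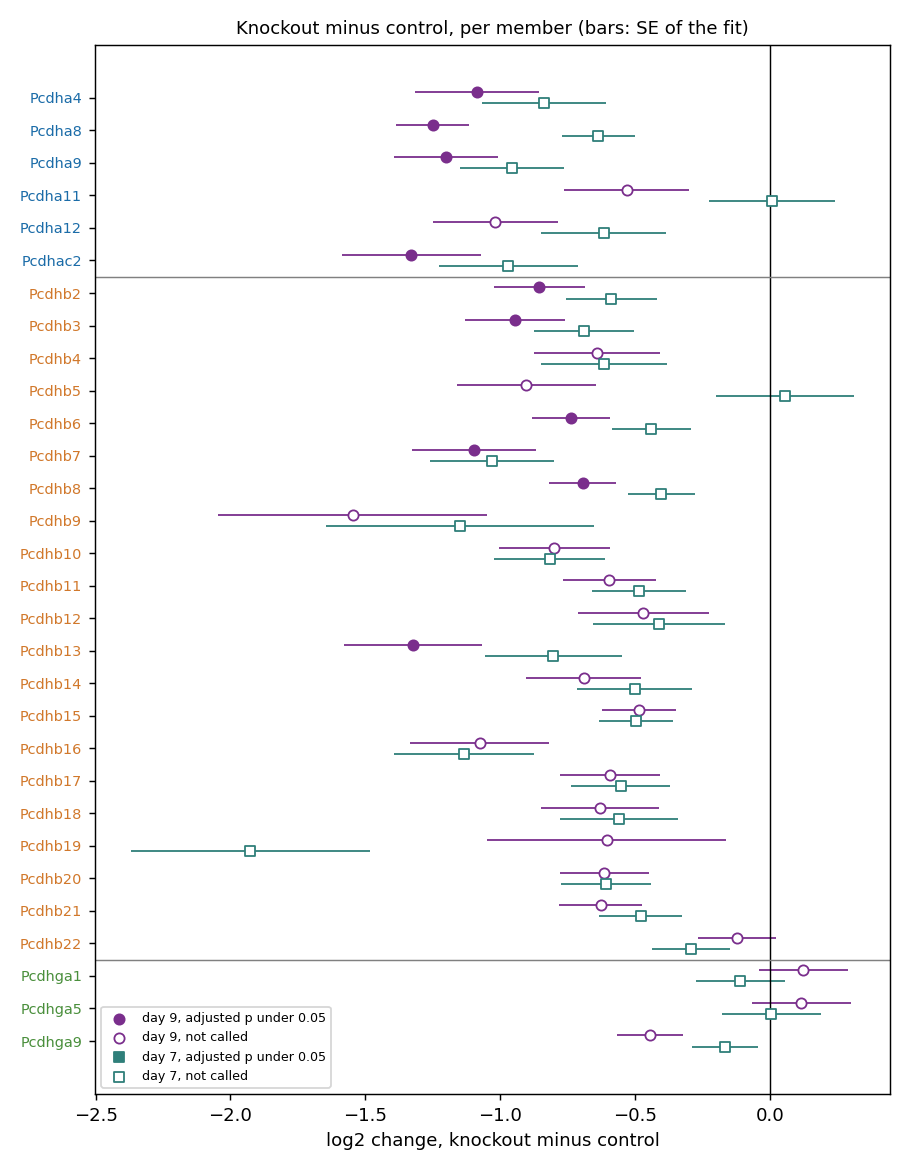
Log2 change (horizontal axis, knockout minus control) of each tested member on day 9 (circles, upper point of each pair) and day 7 (squares, lower point), with bars for the SE of the fit and filled points for an adjusted p under 0.05. Filled points are on day 9 only, 4 among the alpha and 6 among the beta genes, and 26 of 30 genes lie left of 0 on both days (25 to 29 over the 4 other scalings and background corrections).

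Of the beta genes, which encode protocadherins without the shared tail, Pcdhb13 had the largest called change on day 9. It stood at -4.42 and -4.35 in day 9 knockout cells, -3.34 and -2.78 in day 9 controls, -3.95 and -3.98 in day 7 knockout cells, and -2.86 and -3.46 in day 7 controls. The genotypes did not overlap on either day, and knockout cells held 39.9% of the control level on day 9, a change of -1.32 ± 0.26 (adjusted p = 0.0395). Pcdhb7 stood at -0.95 and -1.27 in day 9 knockout cells, 0.18 and -0.20 in day 9 controls, -0.60 and -0.95 in day 7 knockout cells, and 0.44 and 0.07 in day 7 controls. Its arrays were again parted by genotype on each day, with changes of -1.10 ± 0.23 (adjusted p = 0.0480) on day 9 and -1.03 ± 0.23 (adjusted p = 0.107) on day 7.

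Pcdhb3 was printed on 10 spots of each array, whose coefficient of variation within an array was 2.95% to 5.67%. It read -0.73 and -0.86 in day 9 knockout cells, 0.29 and 0.00 in day 9 controls, -0.31 and -0.66 in day 7 knockout cells, and 0.32 and 0.09 in day 7 controls. All 4 knockout arrays were below all 4 control arrays, and the day 9 change was -0.94 ± 0.19 (adjusted p = 0.0411), or 52.0% of control. Pcdhb2 read -3.33 and -3.37 in day 9 knockout cells, -2.41 and -2.58 in day 9 controls, -2.95 and -3.18 in day 7 knockout cells, and -2.31 and -2.64 in day 7 controls. Its changes were -0.86 ± 0.17 (adjusted p = 0.0416) on day 9 and -0.59 ± 0.17 (adjusted p = 0.153) on day 7, again with all knockout arrays below all control arrays.

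Pcdhb6 read -0.16 and -0.18 in day 9 knockout cells, 0.53 and 0.61 in day 9 controls, 0.03 and 0.28 in day 7 knockout cells, and 0.51 and 0.68 in day 7 controls. Pcdhb8 read -4.65 and -4.54 in day 9 knockout cells, -3.88 and -3.93 in day 9 controls, -4.39 and -4.27 in day 7 knockout cells, and -3.93 and -3.93 in day 7 controls. All 4 knockout arrays were below all 4 control arrays in both genes. Theirs were the smallest of the 10 called changes, -0.74 ± 0.15 (adjusted p = 0.0411) for Pcdhb6 and -0.69 ± 0.13 (adjusted p = 0.0352) for Pcdhb8.

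Among the beta genes not called on day 9, Pcdhb9 had the most negative change of the 30 genes and the largest SE. It stood at -5.37 and -4.39 in day 9 knockout cells, -3.05 and -3.61 in day 9 controls, -4.01 and -5.24 in day 7 knockout cells, and -3.23 and -3.73 in day 7 controls, with 1 of 2 knockout arrays below background on day 7, and its day 9 change was -1.55 ± 0.50 (adjusted p = 0.119). Pcdhb16 stood at -0.99 and -1.06 in day 9 knockout cells, 0.30 and -0.19 in day 9 controls, -0.51 and -1.08 in day 7 knockout cells, and 0.51 and 0.16 in day 7 controls. It lay lower in knockout cells on each day without overlap, by -1.08 ± 0.26 (adjusted p = 0.0645) on day 9. Pcdhb5, near background, stood at -5.49 and -5.56 in day 9 knockout cells, -4.78 and -4.46 in day 9 controls, -4.67 and -4.92 in day 7 knockout cells, and -4.49 and -5.21 in day 7 controls. Its genotypes overlapped on day 7, at 0.06 ± 0.26 (adjusted p = 0.935), and parted on day 9, at -0.90 ± 0.26 (adjusted p = 0.0938). Pcdhb5 passed the filter through day 7 knockout and day 9 control cells alone, so the direction of both values was favoured.

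Pcdhb19 passed the filter through control cells of day 7 alone, where it was highest. It read -6.20 and -6.06 in day 9 knockout cells, -5.16 and -5.88 in day 9 controls, -5.84 and -7.12 in day 7 knockout cells, and -4.79 and -4.33 in day 7 controls, and was above background on 0 knockout and 1 control array of day 9, and on 1 knockout and 2 control arrays of day 7. Its day 9 means were -6.13 in knockout and -5.52 in control cells (adjusted p = 0.431). As 1 control array of day 9 was also not above background, no smallest fold can be set and no fall was shown. Its fitted change on day 7 was -1.93 ± 0.44 (adjusted p = 0.112), in the direction that its route through the filter favours.

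Pcdhb22, the last beta gene along the chromosome, was picked out after its values were seen. It stood at -0.06 and -0.30 in day 9 knockout cells, -0.07 and -0.05 in day 9 controls, -0.20 and -0.41 in day 7 knockout cells, and -0.01 and -0.01 in day 7 controls. The genotypes overlapped on day 9, and its changes were -0.12 ± 0.15 (adjusted p = 0.631) on day 9 and -0.29 ± 0.15 (adjusted p = 0.333) on day 7, the first with a 95% interval of -0.47 to 0.23 and a value of 0.09 under median scaling. The 2 other beta genes that carried no call in any comparison, besides Pcdhb5, were Pcdhb4 at -0.64 ± 0.23 (adjusted p = 0.152) and Pcdhb12 at -0.47 ± 0.24 (adjusted p = 0.279) on day 9.

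**Figure D3:**
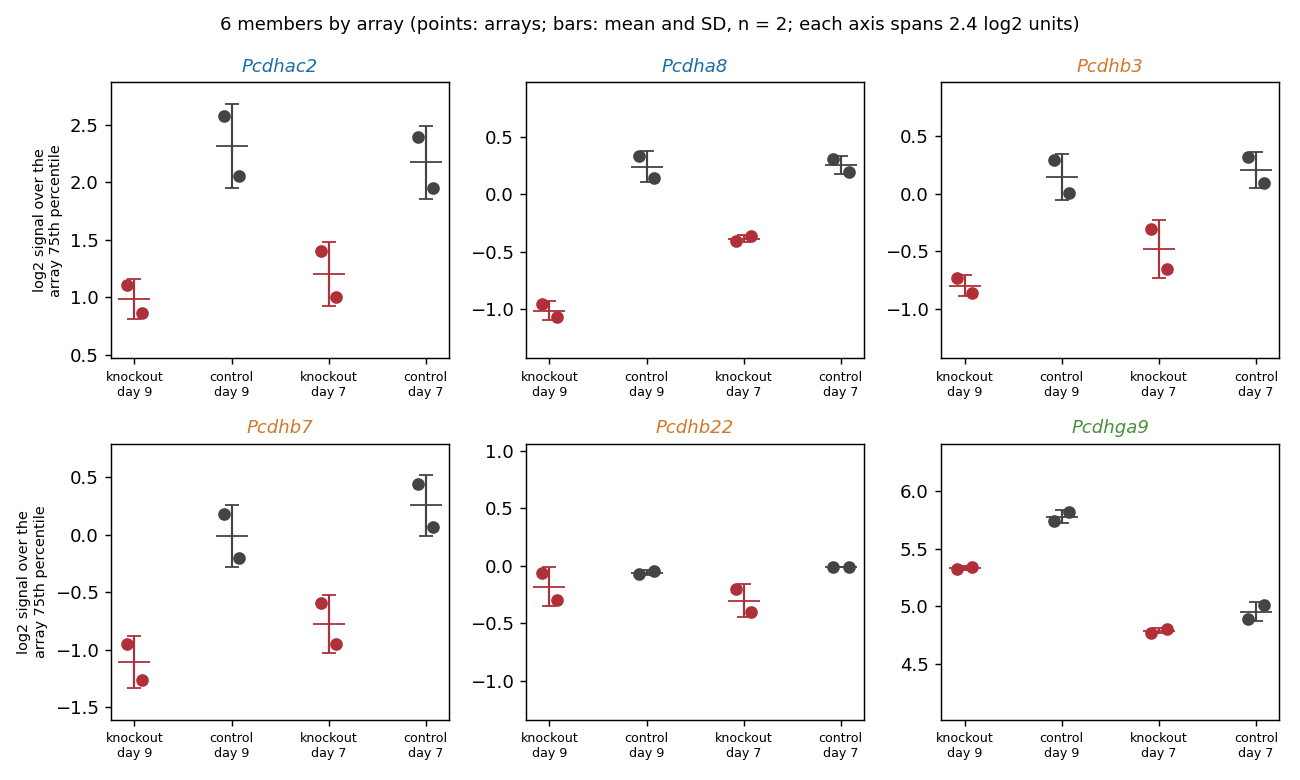
Log2 expression (vertical axis, log2 signal over the array's 75th percentile) of 6 members in the 4 groups, with a point for each array and a bar for the mean and SD of 2 arrays; every vertical axis covers the same span. Knockout points lie below control points for Pcdhac2, Pcdha8, Pcdhb3 and Pcdhb7, while Pcdhb22 overlaps on day 9 and Pcdhga9 stands higher on day 9 in each genotype.

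Of the 3 tested gamma genes, 0 were called between genotypes on either day or over both. Pcdhga1 stood at -3.28 and -3.31 in day 9 knockout cells, -3.58 and -3.26 in day 9 controls, -4.0 and -4.21 in day 7 knockout cells, and -3.90 and -4.08 in day 7 controls. Pcdhga5 stood at -4.50 and -4.90 in day 9 knockout cells, -4.73 and -4.91 in day 9 controls, -5.01 and -4.99 in day 7 knockout cells, and -4.87 and -5.15 in day 7 controls, with 2 of 2 knockout arrays of day 9 and 1 array of each other group above background, and so passed the filter through day 9 knockout cells alone. Both genes overlapped between genotypes on each day. The day 9 difference was 0.12 ± 0.16 (adjusted p = 0.675) for Pcdhga1, with a 95% interval of -0.27 to 0.52, and 0.12 ± 0.18 (adjusted p = 0.728) for Pcdhga5, with an interval of -0.33 to 0.56. The Pcdhga5 value ran in the direction its filter route favours.

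Pcdhga9 stood at 5.32 and 5.34 in day 9 knockout cells, 5.74 and 5.82 in day 9 controls, 4.77 and 4.80 in day 7 knockout cells, and 4.89 and 5.01 in day 7 controls. The knockout arrays were below the control arrays on each day, and the differences of -0.44 ± 0.12 (adjusted p = 0.0891) on day 9 and -0.17 ± 0.12 (adjusted p = 0.517) on day 7 did not pass. A second Pcdhga9 probe, also above background on all 8 arrays, gave -0.04 ± 0.32 on day 9 (adjusted p = 0.961). The gamma median changed sign with the processing, between -0.16 and 0.33 on day 9 over the alternatives run, and 3 genes are a small sample of the 22 in the cluster.

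On day 7, the earlier sampling, 0 of the 30 clustered protocadherins rose and 0 fell by limma at an adjusted p under 0.05, where 0.118% of all genes fell and 0.0975% rose. At an unadjusted p under 0.05, 21 of 30 were lower in knockout cells and 0 higher, against 11.9% of all genes lower and 7.07% higher. Without Pcdhb19 and Pcdhga5, which each passed the filter through 1 group alone, 20 of 28 were lower. The smallest adjusted p was 0.0965, for Pcdha9 at -0.96 ± 0.19. With the replicate number, which is also an array's row on the slide, as a block, 1 member fell on day 7, Pcdhb7 (adjusted p = 0.0453 by limma), where 0.264% of all genes fell. The median was -0.74 over alpha, -0.56 over beta and -0.11 over gamma genes, beside -0.05 over all genes. Knockout arrays were below control arrays without overlap in 26 of 30 genes, and above them in 0, where 27.8% of all genes were below and 20.5% above. The 26 include Pcdhb19, whose route through day 7 control cells favoured that direction.

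With the effects of both days averaged, which sets 4 arrays against 4, 22 of 30 genes fell and 0 rose, where 9.34% of all genes fell and 5.49% rose. They were 5 of 6 alpha genes, 17 of 21 beta genes and 0 of 3 gamma genes. At an unadjusted p under 0.05, 25 were lower and 0 higher, where 20.3% of all genes were lower and 13.4% higher. The medians were -0.95 over alpha, -0.60 over beta and 0.01 over gamma genes, beside -0.04 over all genes, and the alpha and beta medians stayed negative under every alternative run. The smallest p belonged to Pcdha8, at -0.94 ± 0.10 (adjusted p = 0.00696). All 4 knockout arrays were below all 4 control arrays in 18 genes, 5 alpha and 13 beta, and above them in 0, where 8.61% of all genes were below and 5.38% above. The 8 genes without a call were Pcdha11, Pcdhb4, Pcdhb5, Pcdhb12, Pcdhb22 and the 3 gamma genes, of which Pcdhb4 (adjusted p = 0.0503) and Pcdhga9 at -0.31 ± 0.09 (adjusted p = 0.0624) came nearest. With 1 array left out, the count of called members was 1 without knockout replicate 2 of day 9, 6 without knockout replicate 1 or control replicate 1 of day 9, 10 and 12 without knockout replicates 2 and 1 of day 7, 13 and 14 without control replicates 1 and 2 of day 7, and 16 without control replicate 2 of day 9, while 1.25% to 7.14% of all genes fell.

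Several beta genes passed through this mean alone. Pcdhb10 stood at -1.52 and -1.83 in day 9 knockout cells, -0.92 and -0.83 in day 9 controls, -1.16 and -1.68 in day 7 knockout cells, and -0.65 and -0.56 in day 7 controls. Pcdhb20 stood at 0.40 and 0.23 in day 9 knockout cells, 1.01 and 0.84 in day 9 controls, 0.74 and 0.45 in day 7 knockout cells, and 1.30 and 1.10 in day 7 controls. Pcdhb21 stood at 0.92 and 0.78 in day 9 knockout cells, 1.52 and 1.43 in day 9 controls, 1.53 and 1.32 in day 7 knockout cells, and 2.03 and 1.78 in day 7 controls. On each day, all 3 genes were lower on both knockout arrays than on either control array. The mean change was -0.81 ± 0.15 (adjusted p = 0.0212) for Pcdhb10, -0.61 ± 0.12 (adjusted p = 0.0239) for Pcdhb20 and -0.55 ± 0.11 (adjusted p = 0.0252) for Pcdhb21.

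Pcdhb14 read -1.82 and -1.97 in day 9 knockout cells, -1.24 and -1.16 in day 9 controls, -1.96 and -1.75 in day 7 knockout cells, and -1.06 and -1.65 in day 7 controls. Pcdhb15 read -3.84 and -3.86 in day 9 knockout cells, -3.34 and -3.39 in day 9 controls, -3.38 and -3.34 in day 7 knockout cells, and -2.73 and -2.98 in day 7 controls. Pcdhb17 read 0.02 and -0.27 in day 9 knockout cells, 0.64 and 0.30 in day 9 controls, 0.45 and 0.20 in day 7 knockout cells, and 0.89 and 0.87 in day 7 controls. Within each day the knockout arrays of these 3 genes were the lower ones, and Pcdhb15 and Pcdhb17 had knockout levels on day 7 that reached control levels of day 9. Their mean changes were -0.60 ± 0.15 (adjusted p = 0.0463), -0.49 ± 0.10 (adjusted p = 0.0252) and -0.57 ± 0.13 (adjusted p = 0.0359), in the order named.

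Pcdhb18 read -1.42 and -1.98 in day 9 knockout cells, -1.16 and -0.98 in day 9 controls, -1.52 and -1.42 in day 7 knockout cells, and -0.76 and -1.07 in day 7 controls. Pcdhb11 read -3.35 and -3.36 in day 9 knockout cells, -2.66 and -2.86 in day 9 controls, -2.37 and -2.63 in day 7 knockout cells, and -2.18 and -1.85 in day 7 controls. Both were lower on the knockout arrays within each day, with mean changes of -0.59 ± 0.16 (adjusted p = 0.0499) for Pcdhb18 and -0.54 ± 0.12 (adjusted p = 0.0355) for Pcdhb11. The mean change was -1.11 ± 0.18 (adjusted p = 0.0180) for Pcdhb16 and -1.35 ± 0.35 (adjusted p = 0.0498) for Pcdhb9. The fitted value of -1.27 ± 0.31 (adjusted p = 0.0440) for Pcdhb19 ran in the direction its filter route favours, and without Pcdhb19 and Pcdhga5, the 2 genes that passed through 1 group alone, 21 of 28 genes fell.

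The knockout effect was more negative on day 9 than on day 7 in 23 of 30 genes, which were 6 of 6 alpha, 16 of 21 beta and 1 of 3 gamma genes, and in 17 to 24 of 30 under the 4 other scalings and background corrections. No share of all genes was taken for this count, and the median difference over all genes was 0.0039. The 23 include Pcdha8 and Pcdhb5, whose limits are given below. The test of this difference, the interaction of knockout and day, called 0 members by limma, where 0.00406% of all genes were called lower and 0% higher, and the smallest adjusted p was 0.797. At an unadjusted p under 0.05, 2 members were lower and 0 higher, where 3.33% of all genes were lower and 2.68% higher. They were Pcdha8, at -0.61 ± 0.19 with a 95% interval of -1.08 to -0.15 but at 0.12 with its 2 probes averaged, and Pcdhb5, at -0.96 ± 0.36 with an interval of -1.83 to -0.09. Pcdhb5 passed the filter through day 7 knockout and day 9 control cells alone, a route that favours a negative interaction. Pcdhb19 had the most positive interaction, 1.32 ± 0.63 (adjusted p = 0.847), in a gene above background on 4 of 8 arrays. Its route through day 7 control cells favoured that direction.

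**Figure D4:**
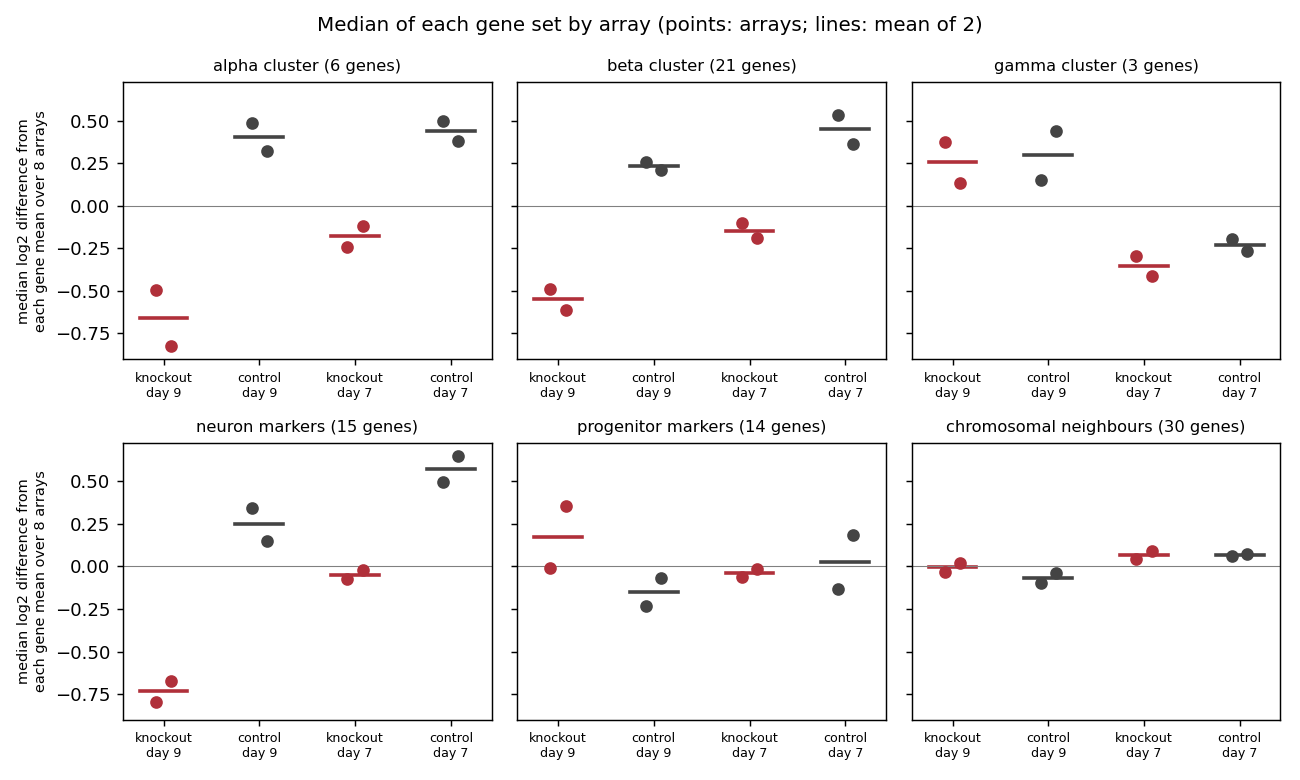
Median, over the genes of a set, of the log2 difference from each gene's own mean (vertical axis) on each array, for the 3 clusters, neuron markers, progenitor markers and the chromosomal neighbours, with points for arrays and lines for the mean of 2. Alpha, beta and neuron marker medians lie below 0 on the 4 knockout arrays and above 0 on the 4 control arrays; gamma medians part by day instead.

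The markers of the cultures' cell types moved beside these genes. Of 15 neuron markers, all above background on all 8 arrays, 7 fell on day 9 and 13 over both days, with medians of -0.96 on day 9, -0.50 on day 7 and -0.72 over both days. Among all genes, 3.96% fell and 1.51% rose on day 9, and 9.34% fell over both days. The median alpha deviation on an array was -0.49 and -0.83 in day 9 knockout cells, 0.48 and 0.32 in day 9 controls, -0.24 and -0.12 in day 7 knockout cells, and 0.50 and 0.38 in day 7 controls. The neuron markers stood at -0.79 and -0.67 in day 9 knockout cells, 0.34 and 0.15 in day 9 controls, -0.08 and -0.02 in day 7 knockout cells, and 0.50 and 0.65 in day 7 controls. Both sets were below 0 on the same 4 arrays. The summed neuron marker level was 218 and 226 in day 9 knockout cells, 503 and 403 in day 9 controls, 419 and 434 in day 7 knockout cells, and 576 and 653 in day 7 controls. Of the motor neuron markers, 4 fell on day 9 and 1 rose, the early motor neuron gene Lhx3 at 0.91 ± 0.16 (adjusted p = 0.0325). Of 14 progenitor markers, 4 rose on day 9, and their summed level was 454 and 545 in knockout cells and 447 and 510 in control cells. The part of these cell types in the protocadherin changes was not tested.

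Markers of other cell types gave mixed values. Of 12 markers of connective tissue, vessels and epithelium, 2 rose and 2 fell on day 9, and their summed level was 159 and 136 in knockout cells and 111 and 117 in control cells. Over all genes, 3.96% fell and 1.51% rose on day 9, and 0.118% fell and 0.0975% rose on day 7. Of 10 markers of pluripotent and trophoblast cells, 4 fell on day 9, with a summed level of 1.25 and 1.34 in knockout cells and 4.31 and 3.61 in control cells, and on day 9 the trophoblast genes Tpbpb, Ctsr and Ctsq were above background on 0 knockout and 2 control arrays. On day 9 these genes met the filter through control cells and not through knockout cells, so a fall was the favoured direction. Of the 10 markers, 7 were above background on all 8 arrays. Of 5 serotonergic markers, 0 were called on day 9, at a summed level of 6.03 and 4.14 in knockout cells and 3.57 and 6.58 in control cells. On day 7, 0 were called and their summed level was 11.1 and 13.8 in knockout cells against 5.74 and 7.64 in control cells. A sum is set mostly by the brightest genes. The median deviation of the set overlapped on day 7, at -1.02 and -0.84 in knockout and -1.11 and -0.63 in control cells. Its median change was 0.17, and 3 of the 5 were above background on all 8 arrays, so no shift of the set was shown. The median change of the connective tissue, vessel and epithelial markers was 0.07 on day 9 and 0.88 on day 7, where 0 rose and 1 fell. The part of these cell types in the result was not tested.

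Time was compared next, day 9 against day 7 within each genotype. In knockout cells, 2 members rose, both gamma genes, and 2 fell, 1 alpha and 1 beta gene, where 4.15% of all genes rose and 4.16% fell. The split was 2 higher and 1 lower under quantile normalization and 2 higher and 0 lower under median scaling. In control cells 1 member rose, the gamma gene Pcdhga9, and 0 fell, where 4.11% of all genes rose and 3.26% fell. The gamma median was 0.55 in knockout and 0.57 in control cells, beside -0.12 over all genes in each genotype. The alpha median was -0.63 in knockout and -0.13 in control cells, and the beta median was -0.32 in knockout and -0.27 in control cells. Pcdhga1 and Pcdhga9 had positive values in both genotypes, as had Pcdhga5. Pcdhga5 passed the filter through day 9 knockout cells alone, which favoured its direction in knockout cells. The knockout count was 0 without any single knockout array, 1 without control replicate 1 or 2 of day 7 and 2 without control replicate 1 or 2 of day 9. The control count was 0 without control replicate 1 or 2 of day 7 or control replicate 2 of day 9.

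Pcdhga9 was higher on both day 9 arrays than on both day 7 arrays of each genotype, by 0.55 ± 0.12 (adjusted p = 0.0461) in knockout cells and 0.82 ± 0.12 (adjusted p = 0.0192) in control cells. Its second probe gave 0.84 ± 0.32 in knockout cells (adjusted p = 0.167) and 0.41 ± 0.32 in control cells (adjusted p = 0.476). Pcdhga1 was also parted by day in each genotype, with a rise of 0.81 ± 0.16 (adjusted p = 0.0351) in knockout cells and a value of 0.57 ± 0.16 (adjusted p = 0.0882) in control cells. Pcdhga5 stood at 0.30 ± 0.18 (adjusted p = 0.353) in knockout and 0.19 ± 0.18 (adjusted p = 0.563) in control cells.

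Pcdha8 fell by 0.63 ± 0.14 on the log2 scale in knockout cells (adjusted p = 0.0413) and stood at -0.01 ± 0.14 (adjusted p = 0.966) in control cells, while its second probe gave 0.59 ± 0.91 in knockout cells. Pcdhb11 fell by 0.86 ± 0.17 in knockout cells (adjusted p = 0.0342) and stood at -0.75 ± 0.17 (adjusted p = 0.0527) in control cells. Each of these genes had both day 9 arrays below both day 7 arrays in knockout cells. The lowest time values were -0.93 ± 0.23 (adjusted p = 0.0604) for Pcdha11 in knockout cells and -0.97 ± 0.44 (adjusted p = 0.226) for Pcdhb19 in control cells. The Pcdhb19 value ran in the direction its filter route favours. In both genotypes, 18 of 30 members had a negative time value, 4 alpha and 14 beta, and 4 a positive one, Pcdha4 and the 3 gamma genes, with 14 to 18 negative and 3 to 6 positive under the 4 other scalings and background corrections. No share of all genes was taken for these signs. The median over all genes was -0.12 in each genotype, so the negative count is not read as a trait of these members. Day 9 arrays were below day 7 arrays without overlap in 17 members in knockout cells, where 35.9% of all genes were, and above them in 3, where 22.1% were. In control cells these counts were 13 lower and 3 higher, beside 35.9% and 18.9% of all genes.

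**Figure D5:**
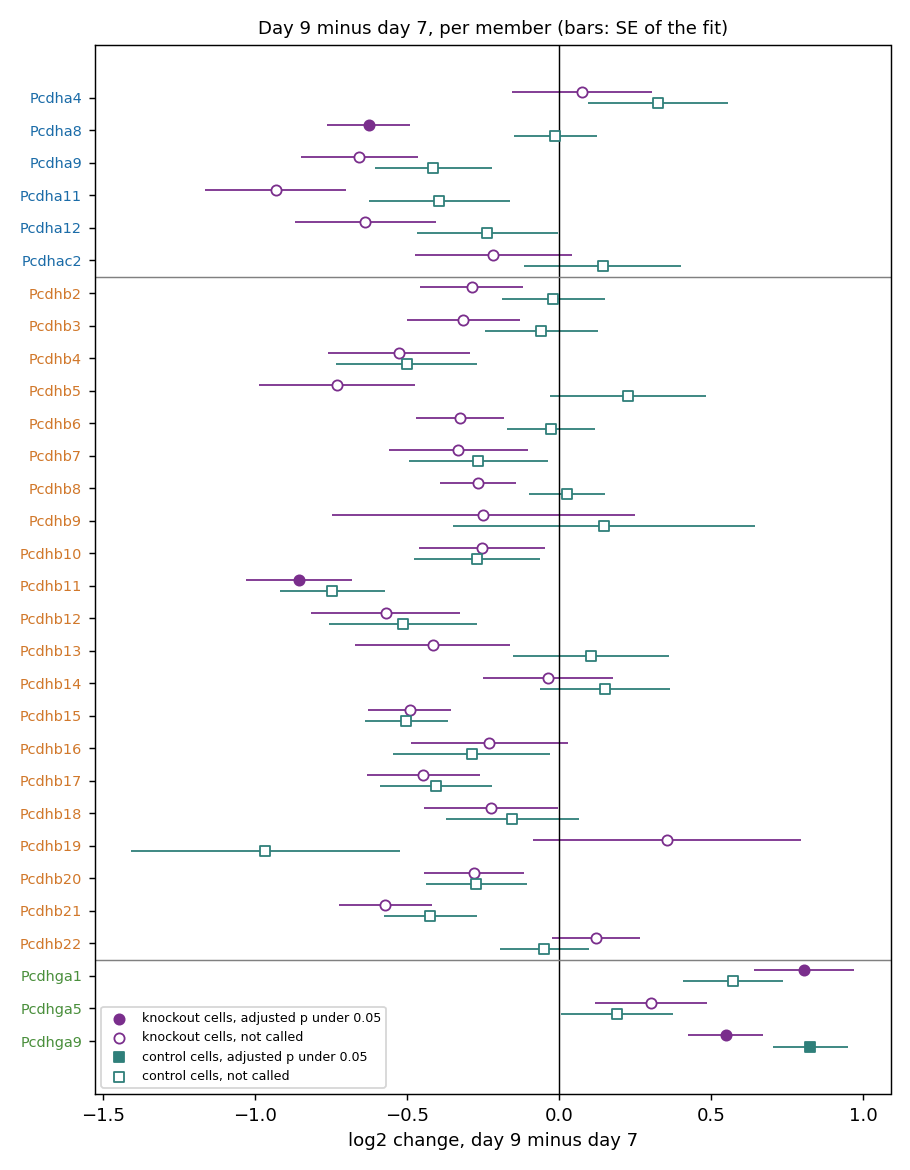
Log2 change from day 7 to day 9 (horizontal axis, day 9 minus day 7) of each tested member in knockout cells (circles, upper point of each pair) and control cells (squares, lower point), with bars for the SE of the fit and filled points for an adjusted p under 0.05. The 3 gamma genes at the bottom lie right of 0 in both genotypes, and 18 alpha and beta genes lie left of 0 in both, a count that other scalings turned to 14 to 18. The median over all genes was -0.12 in each genotype.

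The genes around the clusters on the same chromosome served as a comparison by position. Of the 15 protein-coding genes on each side and the 2 genes between the clusters, 30 were measured. By limma 0 were called on day 9 or on day 7, where 3.96% and 0.118% of all genes fell and 1.51% and 0.0975% rose. At an unadjusted p under 0.05, 4 were lower and 4 higher on day 9, where 15.3% of all genes were lower and 10.4% higher. On day 7 there were 2 each way, where 11.9% of all genes were lower and 7.07% higher. Their median was 0.12 on day 9 and 0.02 on day 7. Between the clusters, Taf7, a subunit of the general transcription factor TFIID, stood at -0.01 ± 0.19 (adjusted p = 0.977) on day 9, and Slc25a2, a mitochondrial carrier, at -0.13 ± 0.27 (adjusted p = 0.795). After the gamma cluster, the actin nucleator Diaph1 stood at 0.13 ± 0.24 (adjusted p = 0.775) and the histone deacetylase Hdac3 at 0.18 ± 0.17 (adjusted p = 0.540). Over both days 1 neighbour rose, Wdr55 at 0.42 ± 0.09 (adjusted p = 0.0275), and 3 fell: Apbb3, Rell2 and Pcdh12. Among all genes, 5.49% rose and 9.34% fell over both days. Pcdh12, a protocadherin of endothelial cells that belongs to no cluster, stood at -1.84 ± 0.35 (adjusted p = 0.0238) over both days. Over the other 362 genes tested on the chromosome, the day 9 median was 0.08.

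The genes that set which protocadherin promoters are used showed no called change between genotypes. Of all genes, 3.96% fell and 1.51% rose on day 9, 0.118% and 0.0975% on day 7, and 9.34% and 5.49% over both days. Lists as short as these would hold few called genes at those shares. Of 11 CTCF and cohesin genes, 0 were called by limma in any comparison of knockout with control. None passed an unadjusted p under 0.05 on either day or over both, where 15.3% of all genes were lower and 10.4% higher on day 9. Ctcf stood at 0.16 ± 0.12 (adjusted p = 0.454) on day 9 and the cohesin subunit Rad21 at 0.02 ± 0.12 (adjusted p = 0.932). Of 10 genes of promoter silencing, 0 were called, with 0 past the unadjusted threshold on each day and 1 higher over both. The chromatin protein Smchd1 stood at 0.14 ± 0.18 (adjusted p = 0.666), the DNA methyltransferase Dnmt3b at -0.09 ± 0.24 (adjusted p = 0.838), the histone methyltransferase Setdb1 at 0.16 ± 0.22 (adjusted p = 0.681) and the repressor Rest at 0.06 ± 0.21 (adjusted p = 0.883) on day 9. Of 19 measured genes for partners and processing of the proteins, 0 were called between genotypes. At an unadjusted p under 0.05, 3 were lower over both days, where 20.3% of all genes were lower. The kinases Ptk2 and Ptk2b, which bind the tails of alpha and gamma protocadherins, stood at 0.05 ± 0.13 (adjusted p = 0.852) and -0.55 ± 0.37 (adjusted p = 0.398) on day 9.

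Relatives outside the clusters gave mixed values. Of 10 measured protocadherins that belong to no cluster, 2 fell on day 9, Pcdh7 at -1.26 ± 0.24 (adjusted p = 0.0383) and Pcdh9 at -1.06 ± 0.20 (adjusted p = 0.0373), and over both days 1 rose, Pcdh18, and 4 fell. Of 22 classical and other cadherins, 2 fell on day 9, Cdh13 at -1.03 ± 0.15 (adjusted p = 0.0237) and Cdh4 at -0.92 ± 0.19 (adjusted p = 0.0466), and 6 fell over both days. Among all genes, 3.96% fell on day 9, and 9.34% fell and 5.49% rose over both days. The day 9 medians were -0.53 over these protocadherins and -0.32 over these cadherins.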

How the data were processed

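Each array was 1 sample of Cy3-labelled RNA on an Agilent mouse array of 62976 spots. The deposited processed signal is each spot's intensity, from which background was subtracted and a trend across the array removed, unscaled between arrays, per the file headers. Agilent Feature Extraction 10.5.1 is the tool the submitters' processing notes name. The authors also deposited a log2 table of the same arrays, each column with a median of 5.81 and correlations with its array's log2 signal of which the lowest was 0.998; its columns share 1 distribution, its baseline is unknown, and it served as an alternative. Groups, days and replicate numbers came from the sample titles. All 8 arrays lay on 1 slide, with replicate 1 in row 1 and replicate 2 in row 2. Each group held the same place along both rows, so that place cannot be told apart from genotype and day.

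Control spots (3671) and outlier spots were left out and spots of 1 probe averaged on the log2 scale, giving 55681 probes, minus the array's 75th percentile. A probe was kept where some group had both arrays well above background, and the kept probe with the highest mean stood for a gene. Symbols came from a RefSeq table on GRCm38.p6; array positions are on mm9, so the table gave names and gene order only. limma 3.58.1 (R 4.3.3) fitted 4 group means to all 8 arrays with lmFit and eBayes. Tests were two-sided, on 4 residual plus 2.53 prior degrees of freedom, with Benjamini-Hochberg adjustment over 24624 genes and a call at an adjusted p under 0.05. Changes are log2 differences ± SE. The number of arrays limits the precision. The fit was tested on simulated data. Tried alternatives were scaling, background correction, the authors' table, filters, probe choice, outlier spots, the prior, a replicate block and each array left out.

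Members and gene lists were chosen with earlier results of these data known. Values on every array were given for called members, for the 3 with the smallest p over both days in each cluster, for tested C-types and for the extremes of each comparison; other lists were named by calls and by a set of genes written down with them. No sequence is printed.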

Additional observations from a re-analysis of the deposited data

Results flagged for a closer look

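Pcdhb1, the first beta gene, lay outside the test because it failed the filter, yet its probe was well above background on 2 knockout arrays, replicate 1 of day 9 and replicate 1 of day 7, and on 0 control arrays. Its log2 values were -5.67 and -6.53 in day 9 knockout cells, -6.32 and -7.10 in day 9 controls, -6.00 and -5.26 in day 7 knockout cells, and -6.21 and -6.91 in day 7 controls. The highest of these, knockout replicate 2 of day 7, did not count as above background. No difference was tested.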

How the results depend on the processing

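No called change turned sign under any alternative. On day 9 the 10 called members became 5 under quantile normalization and 5 with the authors' deposited table, 2 under median scaling, 1 under normexp on the median signal (an alternative chosen after seeing the data, as the mean signal planned for normexp was not in the files used), 0 with no filter on dim probes and 0 with only the groups compared, a fit of fewer arrays, and 0 to 3 without 1 array. The share of all genes that fell moved too, at 3.96% in the reported fit, 2.81% and 2.80% with the first pair, then 2.48%, 0.91%, 0.00268% and 0.15%, and 0.0244% to 2.47% without 1 array. Averaged over the days, 22 became 13 under median scaling, 11 under normexp and 1 with no filter, and 1 to 16 without 1 array, where the share of all genes was 9.34% as reported, then 5.32%, 4.11% and 0.424%, and 1.25% to 7.14%. In knockout cells over time, 4 became 2 under median scaling, 0 under normexp, 0 with no filter, 2 with probes averaged and 0 with only the groups compared, and 0 to 2 without 1 array. In control cells over time, 1 became 0 with no filter, 0 with probes averaged, 0 with only the groups compared and 2 with probes above background on all 8 arrays, and 0 to 1 without 1 array. The day 7 and interaction counts were 0 without any 1 array. Among the 26 members above background on all 8 arrays, fitted with such genes alone, 12 fell on day 9 and 21 over both days. The share of all genes moved over time as well. In control cells 4.45% fell in that fit, beside 3.26% as reported, 0.0403% with no filter and 3.27% with probes averaged. In knockout cells 4.16% fell as reported, 2.89% under median scaling and 1.46% under normexp. Replicate number is also the slide row, and replicate 1 arrays were the brighter ones (1088 to 1691, against 649 to 854 for replicate 2). Deviations of same-numbered arrays correlated at 0.46, 0.31 and 0.25 in 3 pairs of groups and from -0.25 to 0.04 in the other 3, so they did not go together in every pair. With the replicate block the counts were 1 on day 7, 13 on day 9, 23 over both days, 6 in knockout and 1 in control cells over time, and 0 for the interaction. With that block 3.77% of all genes fell in control cells over time, beside 3.26% as reported. Where no share of all genes is given, a gain or loss of calls is not read as a trait of these members. Apart from what is said of smaller fits, the cause was not tested. Under median scaling 65.1% of all calls on day 9 were higher, beside 27.5%. The alpha median on day 9 ran from -1.14 to -0.82 and the beta median from -0.69 to -0.48 over the 11 alternatives other than left-out arrays. Averaging the Pcdha8 probes ended its calls.

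Values of members without a call did turn sign. Under normexp the day 9 values were -0.0100 for Pcdhga1 and -0.14 for Pcdhga5, and the day 7 value of Pcdhb5 was -0.0064. Under median scaling Pcdhb22 stood at 0.087 on day 9. The Pcdha8 value over time in control cells was 0.0041 under quantile normalization, 0.054 under median scaling and 0.0049 with the authors' deposited table, and its interaction was 0.12 with probes averaged. Without 1 array, Pcdha11 ran from -0.17 to 0.18 and Pcdhb5 from -0.30 to 0.42 on day 7, Pcdhga1 from -0.035 to 0.28 and Pcdhga5 from -0.081 to 0.31 on day 9, and Pcdha8 over time in control cells from -0.11 to 0.083. Of the other genes on day 9, Dnmt3b was at 0.12 and Taf7 at 0.20 under median scaling, and Slc25a2 at 0.079 there, at 0.12 under quantile normalization and at 0.12 with the authors' deposited table. Under the last pair of settings Ptk2 was at -0.0175 and -0.0169 and Rad21 at -0.0583 and -0.0580, and with probes averaged Diaph1 was at -0.12 and Taf7 at 0.012. Without 1 array, Diaph1 ran from -0.14 to 0.40, Dnmt3b from -0.25 to 0.064, Ptk2 from -0.0063 to 0.10, Rad21 from -0.032 to 0.073, Rest from -0.020 to 0.14, Slc25a2 from -0.44 to 0.18 and Taf7 from -0.14 to 0.12. Among the reported changes of members, 782 values kept direction and side of the threshold, 278 lost a call, 16 gained one and 16 turned sign. Signals near background limit Pcdhb5, Pcdhb9, Pcdhb19 and Pcdhga5.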
